A study of Mus musculus with 4 samples.

Results

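SR protein genes and hnRNP genes were followed through single-nucleus RNA data from mouse hearts, by cell lineage and by Rbm20 genotype. The members were the features whose symbol starts with Srsf or Hnrnp and that held at least 50 unique molecular identifiers (UMIs, each counting 1 captured transcript molecule) over the 4 count matrices. Of 31 such symbols 30 passed, 10 SR protein genes and 20 hnRNP genes, out of 32287 features in all. Srsf12 was left out with 6 UMIs.

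The 4 libraries were RBM20 homo, RBM20 homo with correction, RBM20 het and WT, all from hearts of C57BL/6 mice aged 6 months. RBM20 homo carries the Rbm20 mutation on both copies, RBM20 homo with correction is that genotype after gene editing, and RBM20 het carries the mutation on 1 copy. The labels used here name neither the allele nor how and when the correction was made. Each library was made once, from 3 pooled hearts, with the 10x Genomics 3′ v3 kit, so no comparison between genotypes has a replicate and no p-value can be given. Intervals in square brackets are 95% intervals of counting error alone, and they do not cover differences between mice, pools or library preparations. The labels describe total cardiac nuclei, while 1 sentence of the same protocol text speaks of CD45+ immune cells. The nuclei held the markers of all main heart lineages.

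SR proteins carry RNA recognition motifs and a tail rich in arginine and serine, bind exonic enhancers and help to recruit the spliceosome. Kinases of the SRPK and CLK families phosphorylate that tail, and transportins carry the proteins into the nucleus. hnRNP proteins coat nascent transcripts, often repress nearby splice sites, and take part in mRNA export, stability and translation. RBM20 is a heart and muscle splicing repressor that itself has an RS-rich stretch, where cardiomyopathy mutations cluster. The transcripts of many SR genes hold so-called poison exons that send them to nonsense-mediated decay, a means by which these proteins limit their own level.

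The RBM20 homo library held 52370368 UMIs, RBM20 homo with correction 51422458, RBM20 het 42375104 and WT 37180791. After filtering, 10443 nuclei of RBM20 homo, 13144 of RBM20 homo with correction, 8871 of RBM20 het and 8681 of WT were kept. Ventricular cardiomyocyte-like nuclei numbered 3054 in RBM20 homo, 3205 in RBM20 homo with correction, 2513 in RBM20 het and 3085 in WT. Pairs of libraries shared between 26 and 56 barcodes, at most 0.485% of the smaller library. The RBM20 homo library stood apart: 2864 of its cardiomyocyte-like nuclei fell in a cluster with 248 nuclei of RBM20 homo with correction, 114 of RBM20 het and 35 of WT. The share of Malat1, a noncoding transcript kept in nuclei, was 24.0% in RBM20 homo cardiomyocyte-like nuclei, 15.3% in RBM20 homo with correction, 15.3% in RBM20 het and 14.4% in WT. Levels are given as CPM, counts per 1000000 non-mitochondrial UMIs of a lineage in a library. Rbm20 itself was at 3784 CPM in RBM20 homo cardiomyocyte-like nuclei, 4665 in RBM20 homo with correction, 4540 in RBM20 het and 4503 in WT. This cardiomyocyte transcript was also counted in other lineages, between 161 and 306 CPM in fibroblast-like nuclei and, in macrophage-like nuclei, at 478 CPM in RBM20 homo, 613 in RBM20 homo with correction, 460 in RBM20 het and 990 in WT. Summed levels of the marker lists of other types in cardiomyocyte-like nuclei were 330 CPM in RBM20 homo against 195 in WT for fibroblasts, 154 against 381 for pericytes, 170 against 58.5 for adipocytes and 1032 against 20.2 for atrial cardiomyocytes. Of 6 atrial markers 2 were at 0 in each of those libraries. Whether these shifts have a part in the results below was not tested.

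Ratios are log2 ratios of these levels, centred on the median ratio of all genes with at least 50 UMIs in the pair of libraries. In cardiomyocyte-like nuclei this median was -0.19 for RBM20 homo over WT, -0.05 for RBM20 het over WT, 0.11 for RBM20 homo with correction over RBM20 homo and -0.06 for RBM20 homo with correction over WT. A member counted as past the threshold when it was at least 1.5-fold away from that median with its counting interval on the same side. Levels are shares of a lineage's UMIs, so the number of its nuclei and the total RNA per nucleus are not read from them. In such sums a change in each nucleus cannot be told apart from a shift in composition within a lineage.

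In cardiomyocyte-like nuclei of RBM20 homo against WT, 1 of the 30 members was higher past 1.5-fold, the SR gene Srsf7, and 2 were lower, the SR gene Srsf9 and the hnRNP gene Hnrnpl. These 3 members are 10% of the 30, while 29.8% of all 13227 genes tested passed the same threshold, 15.9% higher and 13.9% lower. Among all genes with at least 200 UMIs the share was 25.8%. The median member stood at 0.08, with SR genes at 0.13 and hnRNP genes at 0.04, and 21 of 30 members were less than 25% away from the median of all genes (as a ratio of the larger to the smaller), as were 47.1% of all genes tested. With no centring the split became 0 higher and 4 lower, since Srsf7 dropped to 0.57, just under the threshold of 0.58, and Srsf6 and Hnrnpdl passed on the lower side, while 32.8% of all genes passed on that scale. The median member was then -0.11. The direction of the median member thus depended on the scaling.

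**Figure D1:**
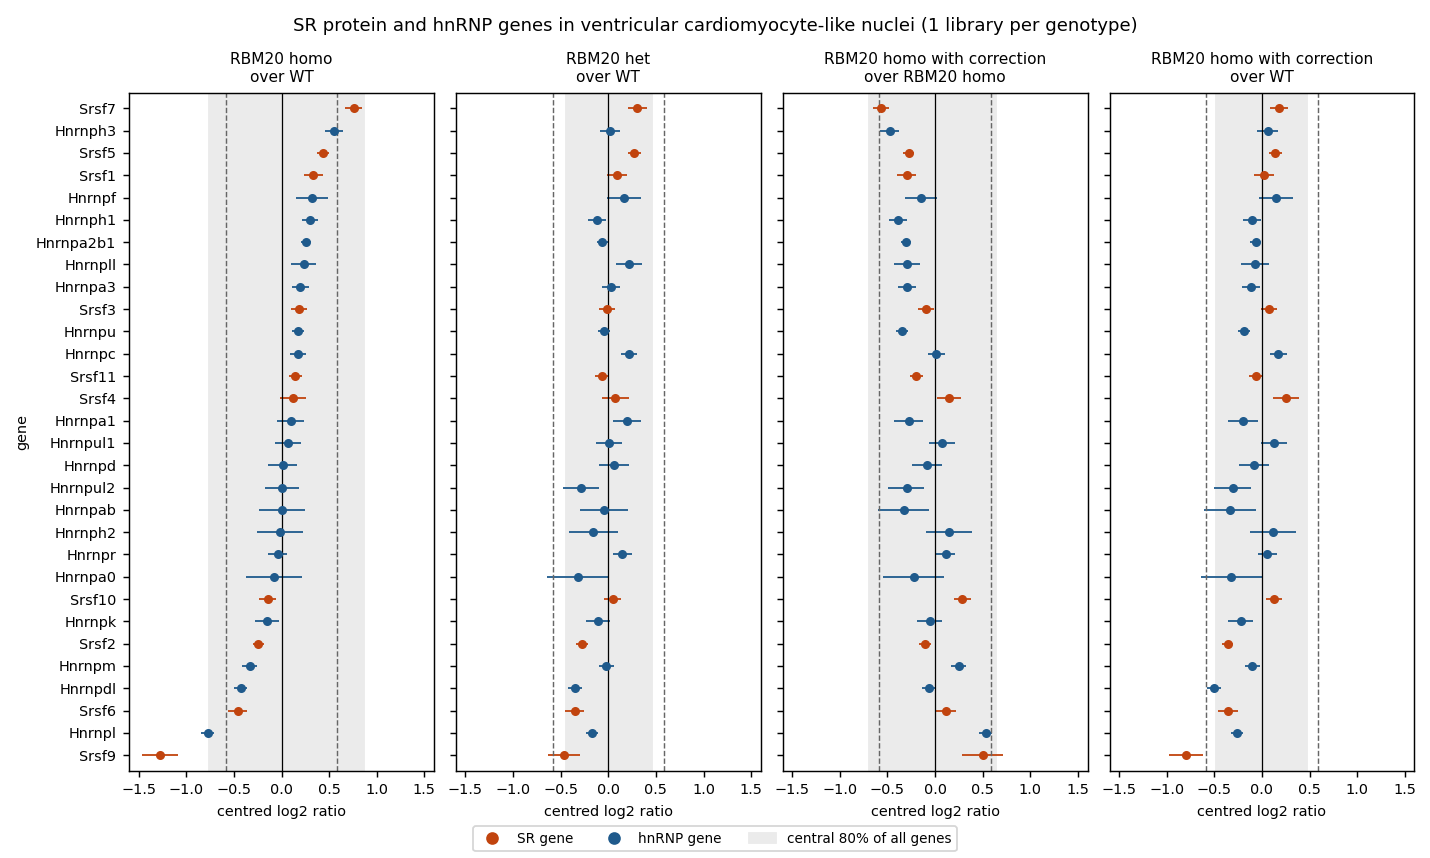
Centred log2 ratio of each of the 30 genes in ventricular cardiomyocyte-like nuclei (x axis) for 4 comparisons, with 95% counting intervals, the 1.5-fold lines (dashed) and the central 80% of all genes tested (grey). In RBM20 homo over WT the genes run between -1.28 for Srsf9 and 0.76 for Srsf7, while in RBM20 het over WT they run between -0.47 and 0.31.

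Srsf9, also called SRp30c, was the member furthest from the median. Its summed count was 327 UMIs in RBM20 homo cardiomyocyte-like nuclei, 401 in RBM20 homo with correction, 502 in RBM20 het and 745 in WT. The level was 16.3 CPM [14.6 to 18.2] in RBM20 homo, 24.9 [22.5 to 27.4] in RBM20 homo with correction, 31.3 [28.6 to 34.2] in RBM20 het and 45.0 [41.8 to 48.3] in WT. No pair of these counting intervals overlapped, and the order was RBM20 homo, RBM20 homo with correction, RBM20 het and WT, the highest. The centred log2 ratio of RBM20 homo over WT was -1.28 [-1.47 to -1.09], 2.42-fold lower in RBM20 homo after centring, and -1.47 before centring. It was the 1 member that also passed a 2-fold threshold, which 14.5% of all genes did.

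Hnrnpl, whose protein binds CA repeats and regulates many alternative exons, had 2973 UMIs in RBM20 homo, 3728 in RBM20 homo with correction, 3952 in RBM20 het and 4785 in WT. Its level was 148 CPM [143 to 154] in RBM20 homo, 231 [224 to 239] in RBM20 homo with correction, 247 [239 to 254] in RBM20 het and 289 [281 to 297] in WT. RBM20 homo lay below the other libraries, and no intervals overlapped, although those of RBM20 homo with correction and RBM20 het nearly met. RBM20 homo over WT was -0.77 [-0.84 to -0.71], 1.71-fold lower after centring. Its close relative Hnrnpll, best known for exon choice in activated T cells, was at 51.6 CPM in RBM20 homo, 45.5 in RBM20 homo with correction, 56.2 in RBM20 het and 50.1 in WT, a ratio of 0.23 [0.10 to 0.37] for RBM20 homo over WT.

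Srsf7, also called 9G8, a splicing factor that also acts in mRNA export, had 2986 UMIs in RBM20 homo, 1752 in RBM20 homo with correction, 1916 in RBM20 het and 1663 in WT. The level was 149 CPM [143 to 154] in RBM20 homo, 109 [104 to 114] in RBM20 homo with correction, 120 [114 to 125] in RBM20 het and 100.4 [95.7 to 105.4] in WT. RBM20 homo was above the other libraries, RBM20 het was next, and the intervals of RBM20 homo with correction and WT overlapped. RBM20 homo over WT was 0.76 [0.67 to 0.84], 1.69-fold higher after centring.

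The upstream windows of these 3 genes are shown because they are the members past the threshold in cardiomyocyte-like nuclei. Each is the 250 bases before the RefSeq transcription start (GRCm38.p6), read 5′ to 3′ on the gene's strand, with motif matches in capitals. The windows lie at chr5:115326927-115327176 on the plus strand for Srsf9, chr7:28810640-28810889 on the plus strand for Hnrnpl and chr17:80207306-80207555 on the minus strand for Srsf7. Searched on both strands were the CCAAT box, the TATAA letters of the TATA box, the GC box core GGGCGG and the E-box CACGTG. A capital stretch may thus read as the reverse complement, and no printed matches overlap.
Srsf9: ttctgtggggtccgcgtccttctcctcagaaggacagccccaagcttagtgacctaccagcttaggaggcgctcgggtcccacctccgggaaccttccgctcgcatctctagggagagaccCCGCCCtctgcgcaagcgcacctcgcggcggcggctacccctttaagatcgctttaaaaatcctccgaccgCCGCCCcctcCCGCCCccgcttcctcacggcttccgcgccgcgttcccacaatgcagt
Hnrnpl: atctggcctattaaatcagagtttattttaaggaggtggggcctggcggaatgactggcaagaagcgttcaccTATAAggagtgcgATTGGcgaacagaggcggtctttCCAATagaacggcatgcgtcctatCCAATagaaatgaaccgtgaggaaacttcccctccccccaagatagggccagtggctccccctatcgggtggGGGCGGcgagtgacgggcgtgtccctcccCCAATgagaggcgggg
Srsf7: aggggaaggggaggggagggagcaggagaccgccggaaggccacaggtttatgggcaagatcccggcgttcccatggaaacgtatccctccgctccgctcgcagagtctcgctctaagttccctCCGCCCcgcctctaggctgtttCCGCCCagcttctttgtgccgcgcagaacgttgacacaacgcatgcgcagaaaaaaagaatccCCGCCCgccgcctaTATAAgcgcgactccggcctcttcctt
Srsf9 holds 3 matches to GGGCGG and none to the other motifs. Hnrnpl holds 4 matches to CCAAT, 1 to TATAA and 1 to GGGCGG, and Srsf7 holds 3 to GGGCGG and 1 to TATAA close to its start. RefSeq windows were found for 28 members, all but Hnrnpll and Hnrnpul2. Some members have several starts, and their windows number 40. Of these windows 80% held GGGCGG, against 33.0% of 32536 mouse windows of this length, 50% held CCAAT (33.8% of mouse windows), 17.5% TATAA (22.7%) and 7.5% CACGTG (6.04%). Windows of the same gene were counted apart here. By gene, 23 of the 28 members held GGGCGG. The mouse windows were not restricted to genes expressed in heart. These counts describe letters and show no binding.

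The annotated gene of Srsf9 (ENSMUSG00000029538) spans 115327177 to 115333080 on the plus strand of chromosome 5, and that of Srsf7 (ENSMUSG00000024097) 80200080 to 80207307 on the minus strand of chromosome 17, in GRCm38. Hnrnpl (ENSMUSG00000015165) spans 28808541 to 28822266 on the plus strand of chromosome 7, so that its RefSeq window lies inside the longer GENCODE gene model. The genes next to them did not follow them in a fixed way in RBM20 homo over WT cardiomyocyte-like nuclei. Ech1, a fatty acid oxidation enzyme gene 2950 bases downstream of Hnrnpl on the same strand, was at 35.7 CPM in RBM20 homo and 107 in WT, a ratio of -1.40 [-1.52 to -1.27]. Galm, an aldose mutarotase gene next to Srsf7 on the opposite strand, was at 52.8 in RBM20 homo and 122 in WT, a ratio of -1.01 [-1.12 to -0.91]. Gatc, 158 bases from Srsf9 on the opposite strand, had 65 UMIs in RBM20 homo and 53 in WT, and its interval of -0.34 to 0.76 spanned 0. Gm13830, on the other side of Srsf9 and on the same strand, had 42 UMIs in RBM20 homo and 11 in WT, a ratio of 1.85 [0.86 to 2.95]. The intervals of Rinl next to Hnrnpl and Ttc39d next to Srsf7 spanned 0.

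**Figure D2:**
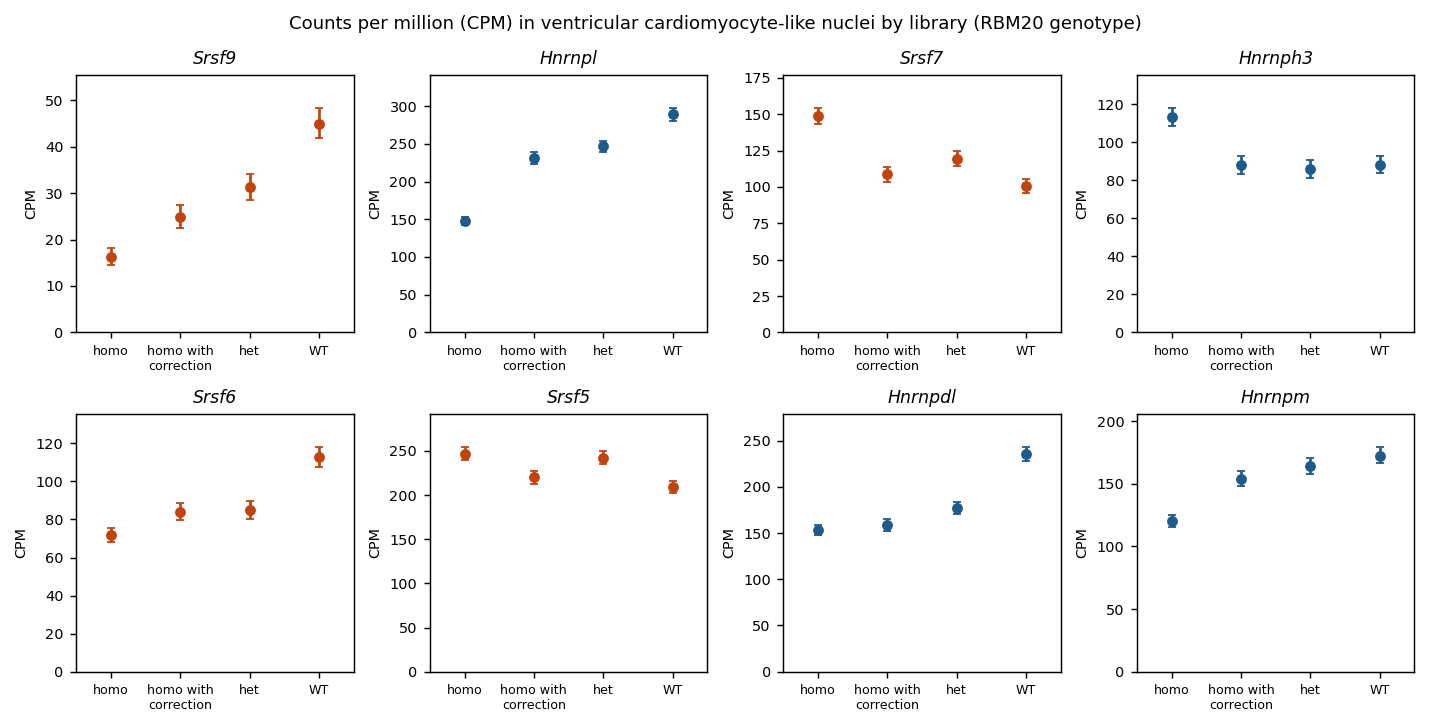
Level in CPM (y axis, starting at 0) of 8 members in ventricular cardiomyocyte-like nuclei of each library, 1 point per library with its 95% counting interval. Srsf9 lies at 16.3 in RBM20 homo and 45.0 in WT with the other libraries between, and Srsf7 and Hnrnph3 are highest in RBM20 homo.

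Among the other SR genes of cardiomyocyte-like nuclei, Srsf5 and Srsf6 lay furthest from the median. Srsf5, first described as an insulin-induced gene in rat liver cells, was at 247 CPM in RBM20 homo, 220 in RBM20 homo with correction, 243 in RBM20 het and 209 in WT. Its ratio was 0.43 [0.37 to 0.50] for RBM20 homo over WT and 0.27 [0.20 to 0.34] for RBM20 het over WT. Srsf6, also called SRp55, was at 71.8 in RBM20 homo, 84.1 in RBM20 homo with correction, 84.8 in RBM20 het and 113 in WT. WT stood above the other libraries, and RBM20 homo over WT was -0.46 [-0.56 to -0.36].

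Srsf2, also called SC35 and a marker of nuclear speckles, had a similar layout at 221 CPM in RBM20 homo, 223 in RBM20 homo with correction, 237 in RBM20 het and 299 in WT, with a ratio of -0.24 for RBM20 homo over WT. Srsf1, which acts in both constitutive and alternative splicing and is needed for the splicing of Camk2d in mouse heart, was at 0.33 [0.23 to 0.43]. Srsf3, an SR protein with roles in export and in mouse heart contraction, was at 0.18, Srsf11 at 0.15, Srsf4 at 0.12 and Srsf10 at -0.15. Srsf10, a repressor of splicing when dephosphorylated, was the lowest of its 4 libraries in RBM20 homo, at 108 CPM against 143 in RBM20 homo with correction, 136 in RBM20 het and 137 in WT.

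Among the 20 hnRNP genes 13 lay above the median of all genes in RBM20 homo over WT, as did 19 of all 30 members. The F and H group, whose proteins bind runs of G, held 3 of its 4 members above it, so this count does not set the group apart. Hnrnph3 was at 113 CPM in RBM20 homo, 88.0 in RBM20 homo with correction, 85.9 in RBM20 het and 88.2 in WT. RBM20 homo stood alone and the other libraries had overlapping intervals, and the ratio of RBM20 homo over WT was 0.55 [0.45 to 0.65], under the threshold. Hnrnph3 passed it at 0.63 when nuclei were thinned to 1000 UMIs and at 0.59 when nuclei were assigned 1 by 1 from markers. Hnrnpf was at 0.32 [0.15 to 0.48] and Hnrnph1 at 0.30 [0.21 to 0.39], while Hnrnph2, on the X chromosome, was at -0.01 [-0.25 to 0.23].

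In the A and B group, the best known repressors of exons, Hnrnpa2b1 was at 0.26, Hnrnpa3 at 0.20, Hnrnpa1 at 0.09 and Hnrnpa0 at -0.08 for RBM20 homo over WT. Hnrnpab was at 0.01. Hnrnpd, known as AUF1 and a factor of mRNA decay, was at 0.01 [-0.14 to 0.17]. Its neighbour and relative Hnrnpdl, 54638 bases away on chromosome 5, was at 153 CPM in RBM20 homo, 159 in RBM20 homo with correction, 177 in RBM20 het and 235 in WT. WT was above the other libraries, and the ratio of RBM20 homo over WT was -0.43 [-0.50 to -0.36].

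Hnrnpm, a splicing factor that also binds GU-rich intron sites, was at 120 CPM in RBM20 homo, 154 in RBM20 homo with correction, 164 in RBM20 het and 173 in WT, a ratio of -0.33 [-0.41 to -0.26] for RBM20 homo over WT. Hnrnpm overlaps another gene annotated on the same strand, so its count may be split or shared with it. Hnrnpc, which in human cells keeps Alu-derived exons out of mRNA, was at 0.17, Hnrnpu, a scaffold attachment protein, at 0.18, Hnrnpul1 at 0.07, Hnrnpul2 at 0.01, Hnrnpr at -0.04 and Hnrnpk, a binder of C-rich RNA, at -0.15.

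RBM20 het against WT gave smaller differences in cardiomyocyte-like nuclei. None of the 30 members passed 1.5-fold, while 11.5% of all 12942 genes tested did, and the median member was at -0.02. With the threshold at 25%, 3 members passed, against 24.3% of all genes, and all were lower: Srsf9 at -0.47 [-0.63 to -0.30], Srsf6 at -0.35 [-0.46 to -0.25] and Hnrnpdl at -0.35 [-0.42 to -0.28]. Srsf7 was the highest at 0.31 [0.21 to 0.40]. Hnrnph3 was at 0.02 [-0.09 to 0.12] and Hnrnpl at -0.17 [-0.24 to -0.11].

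RBM20 homo with correction against RBM20 homo gave no member past 1.5-fold in cardiomyocyte-like nuclei, against 23% of all 13116 genes tested. The 4 members furthest from the median were Srsf7 at -0.57 [-0.65 to -0.48], Hnrnpl at 0.53 [0.46 to 0.60], Srsf9 at 0.50 [0.28 to 0.71] and Hnrnph3 at -0.48 [-0.57 to -0.38]. With no centring Hnrnpl and Srsf9 passed on the higher side, where 24.1% of all genes passed either way. The median member was at -0.13, and 20 of 30 members lay below 0. This comparison shares the RBM20 homo library with the one against WT, so the 2 sets of ratios are not independent.

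RBM20 homo with correction against WT left 1 member past 1.5-fold in cardiomyocyte-like nuclei, Srsf9 at -0.79 [-0.97 to -0.61], 1.73-fold lower after centring, where 6.41% of all genes tested were lower and 12.9% passed in either direction. Hnrnpdl was next at -0.50 [-0.58 to -0.43], followed by Srsf2 at -0.36 and Srsf6 at -0.36. Hnrnpl was at -0.26 [-0.32 to -0.20] and Srsf7 at 0.18 [0.08 to 0.27].

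Within a library the members could also be set against the state of the nuclei, since 2 clusters held most cardiomyocyte-like nuclei. The first held 72 nuclei of RBM20 homo, 2787 of RBM20 homo with correction, 2255 of RBM20 het and 2860 of WT, and the second is the cluster of mostly RBM20 homo nuclei described above. Members were kept out of the genes used for clustering, but a cluster against another is a description. In the RBM20 homo with correction library, Srsf7 was at 160 CPM in the 248 nuclei of the second cluster and 103 in the 2787 of the first, a ratio of 0.67 [0.45 to 0.89]. In the same nuclei Hnrnpl was at 181 in the second cluster and 237 in the first, a ratio of -0.35 [-0.55 to -0.15]. Srsf5 was at 273 in the second and 214 in the first, a ratio of 0.39 [0.22 to 0.56]. For Srsf5 the same split gave -0.05 [-0.32 to 0.24] in RBM20 homo, 0.03 [-0.19 to 0.24] in RBM20 het and 0.05 [-0.40 to 0.47] in WT. Srsf9 rested on 24 UMIs in the second and 362 in the first, and its interval spanned 0. Other members of that library with intervals off 0 were Hnrnpa2b1, Hnrnpk, Hnrnpul2 and Srsf2, higher in the second cluster, and Hnrnpul1, lower. The share of all genes with intervals off 0 in this split was not counted, so these intervals do not set the members apart. In RBM20 het the same split gave -0.01 [-0.34 to 0.30] for Srsf7 and -0.16 [-0.39 to 0.07] for Hnrnpl, on 114 nuclei of the second cluster. In WT it gave 0.11 [-0.55 to 0.70] for Srsf7 and -0.51 [-0.97 to -0.08] for Hnrnpl, on 35 nuclei of the second cluster. In RBM20 homo, Hnrnpl was at 148 CPM in the 2864 nuclei of the second cluster and 166 in the 72 nuclei of the first, and Srsf9 was at 16.3 in the second and 16.8, on 7 UMIs, in the first. The Srsf7 ratio in RBM20 homo was 0.39 [-0.01 to 0.83]. Intervals off 0 in RBM20 homo were those of Hnrnpa3 and Srsf1, higher in the second cluster, and Hnrnpab, lower. In RBM20 het the interval of Hnrnpul1 was off 0, lower in the second cluster.

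In the 4 other large lineages Srsf7, Hnrnpdl and Srsf6 were the members past the threshold for RBM20 homo over WT. In fibroblast-like nuclei Srsf7 alone passed of 30 members, on the higher side, where 11.7% of all genes tested were higher and 21.1% passed either way. In endothelial-like nuclei Hnrnpdl alone passed, on the lower side, against 7.34% of genes lower and 16.9% in all. None of the 28 members tested passed in pericyte-like nuclei, against 15.8% of genes. In macrophage-like nuclei 2 of 29 passed, Srsf7 higher and Srsf6 lower, against 17.8% of genes. The macrophage call for Srsf6, at -0.68 [-1.14 to -0.22], rested on 73 UMIs in RBM20 homo and 94 in WT and was lost when doublets were kept or when nuclei were assigned 1 by 1. Fibroblast-like nuclei of RBM20 homo fell mostly in a cluster of their own, with 2699 of 3069, as the cardiomyocyte-like nuclei did.

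Srsf7 had a counting interval above 0 for RBM20 homo over WT in each of the 5 large lineages. In fibroblast-like nuclei it was at 238 CPM in RBM20 homo, 150 in RBM20 homo with correction, 160 in RBM20 het and 134 in WT, and the RBM20 homo over WT ratio was 0.77 [0.64 to 0.89]. In macrophage-like nuclei it was at 270 in RBM20 homo, 147 in RBM20 homo with correction, 167 in RBM20 het and 143 in WT, with 0.88 [0.58 to 1.20]. In endothelial-like nuclei it was at 211 in RBM20 homo, 156 in RBM20 homo with correction, 174 in RBM20 het and 161 in WT, with 0.42 [0.22 to 0.62]. Pericyte-like nuclei had 213 in RBM20 homo and 157 in WT, with 0.48 [0.18 to 0.77]. RBM20 homo held the highest level in each of these lineages. Marker lists of other types also differed in these nuclei. In macrophage-like nuclei the ventricular cardiomyocyte list summed to 9883 CPM in RBM20 homo and 17296 in WT, the fibroblast list to 1048 in RBM20 homo and 512 in WT, and the atrial list to 759 in RBM20 homo and 16.9 in WT. In fibroblast-like nuclei the atrial list summed to 612 in RBM20 homo and 26.2 in WT, and the ventricular list to 4253 in RBM20 homo and 5003 in WT. The part of these shifts in the Srsf7 values was not tested. The difference between the cardiomyocyte and the fibroblast ratio was -0.01 [-0.16 to 0.14], and that between the cardiomyocyte and the endothelial ratio 0.34 [0.12 to 0.55]. Against RBM20 homo, RBM20 homo with correction was past 1.5-fold lower for Srsf7 in fibroblast-like nuclei at -0.60 [-0.69 to -0.50], where 9.62% of genes were lower, and in macrophage-like nuclei at -0.87 [-1.12 to -0.61], where 6.46% were.

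Srsf9 and Hnrnpl had a different layout, with the ratio furthest below 0 in cardiomyocyte-like nuclei. Srsf9 ratios of RBM20 homo over WT in fibroblast-, endothelial- and macrophage-like nuclei were -0.26, -0.33 and -0.31, each with an interval that spanned 0. The cardiomyocyte ratio minus each of these was -1.01 [-1.44 to -0.58], -0.95 [-1.59 to -0.31] and -0.96 [-1.69 to -0.23]. Pericyte-like nuclei held too few Srsf9 UMIs to be tested, 17 in RBM20 homo and 24 in WT. Hnrnpl ratios were -0.30, -0.42, -0.29 and -0.33 in fibroblast-, endothelial-, pericyte- and macrophage-like nuclei. The cardiomyocyte ratio minus each of these was -0.47 [-0.62 to -0.32], -0.36 [-0.58 to -0.13], -0.48 [-0.79 to -0.18] and -0.44 [-0.76 to -0.12].

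Srsf5 had ratios of opposite sign by lineage. Its RBM20 homo over WT ratio of 0.43 in cardiomyocyte-like nuclei stood beside -0.30 [-0.38 to -0.21] in fibroblast-, -0.14 [-0.28 to 0.01] in endothelial-, -0.20 [-0.40 to -0.01] in pericyte- and -0.18 [-0.39 to 0.04] in macrophage-like nuclei. The difference between the cardiomyocyte ratio and each of the others was 0.73 [0.63 to 0.84], 0.57 [0.41 to 0.72], 0.64 [0.44 to 0.84] and 0.61 [0.39 to 0.83]. In fibroblast-like nuclei its level was 302 CPM in RBM20 homo, 325 in RBM20 homo with correction, 349 in RBM20 het and 357 in WT, the reverse of the cardiomyocyte order of RBM20 homo and WT. None of these values passed 1.5-fold within a lineage. Hnrnph1 had the same signs, at 0.30 in cardiomyocyte-like nuclei and between -0.36 and -0.22 in the 4 other large lineages. Its differences were 0.55 [0.42 to 0.69], 0.59 [0.39 to 0.78], 0.66 [0.38 to 0.93] and 0.52 [0.25 to 0.80] in the same order. Srsf1 and Srsf4 also had these signs, with some of the negative ratios near 0. The change of sign is thus not particular to Srsf5.

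Hnrnpdl was highest in the WT library in all 8 lineages. In endothelial-like nuclei it was at 167 CPM in RBM20 homo, 164 in RBM20 homo with correction, 197 in RBM20 het and 289 in WT, with -0.76 [-0.95 to -0.58] for RBM20 homo over WT and -0.78 [-0.95 to -0.62] for RBM20 homo with correction over WT. In fibroblast-like nuclei it was at 285 in RBM20 homo, 233 in RBM20 homo with correction, 271 in RBM20 het and 355 in WT. In pericyte-like nuclei it was at 216 in RBM20 homo, 186 in RBM20 homo with correction, 225 in RBM20 het and 315 in WT. RBM20 homo with correction over WT passed 1.5-fold lower in fibroblast-like nuclei at -0.62 and in pericyte-like nuclei at -0.75, where 5.19% and 4.4% of all genes tested were lower. The WT library is common to all of these ratios, and whether that library accounts for them was not tested. Ratios of RBM20 homo over WT below 0 in all 5 large lineages were not particular to Hnrnpdl. Srsf2 ran between -0.38 and -0.24 and Hnrnpm between -0.41 and -0.26, and Srsf6 and Hnrnpl were also below 0 in each. How many of all genes were highest in WT in every lineage was not counted. Against RBM20 homo, RBM20 homo with correction was at -0.06 [-0.14 to 0.01] for Hnrnpdl in cardiomyocyte-like nuclei and -0.01 [-0.20 to 0.18] in endothelial-like nuclei.

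**Figure D3:**
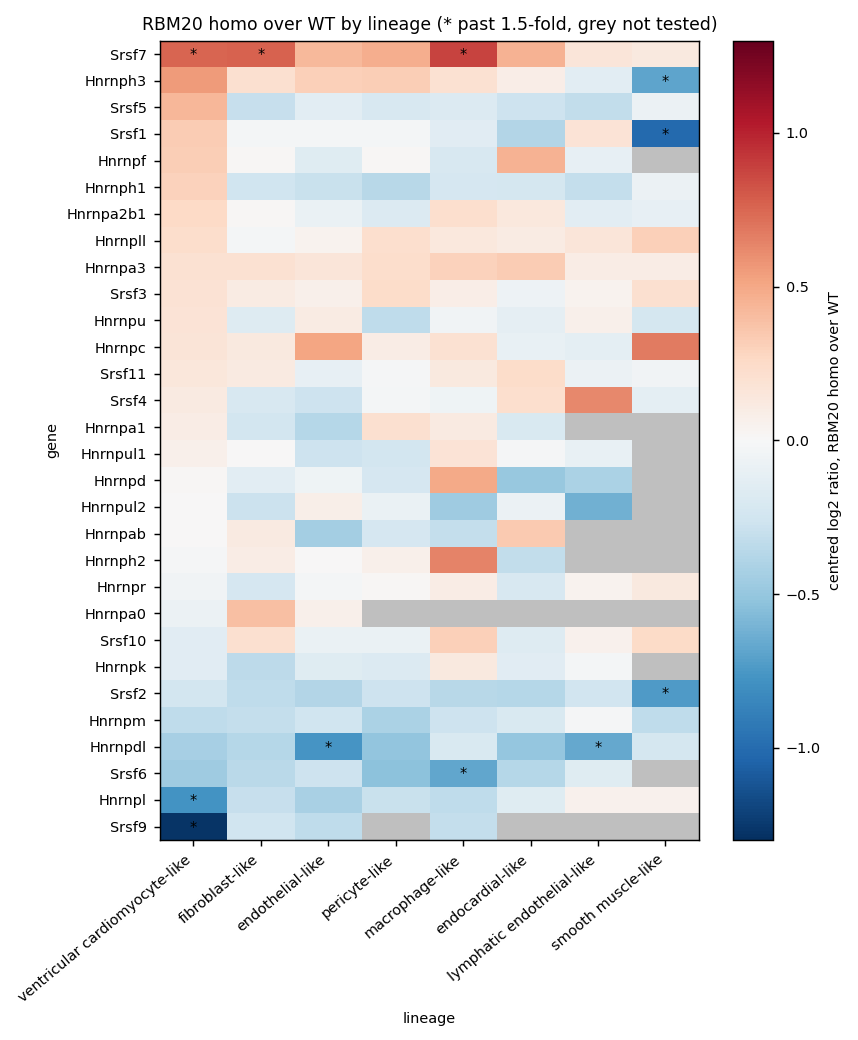
Centred log2 ratio of RBM20 homo over WT (colour, red higher in RBM20 homo) for the 30 genes (rows) in 8 lineages (columns), with stars for values past 1.5-fold and grey for genes under 50 UMIs. Srsf7 is red from 0.42 to 0.88 in the 5 large lineages, Srsf9 and Hnrnpl are darkest blue in cardiomyocyte-like nuclei, and Srsf5 is red in cardiomyocyte-like nuclei beside blue in the others. Hnrnph1 has the same signs as Srsf5 in the 5 large lineages.

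RBM20 homo with correction over WT gave further calls in these lineages. In fibroblast-like nuclei Srsf9 was lower past 1.5-fold at -0.75 [-1.19 to -0.31], on 92 UMIs in RBM20 homo with correction and 87 in WT, beside Hnrnpdl. In endothelial-like nuclei 3 of 30 members were lower, against 4.25% of genes: Hnrnpdl, Hnrnpa1 at -0.83 [-1.19 to -0.48] and Hnrnpab at -0.60 [-1.05 to -0.15]. Hnrnpa1, the archetype of exon repressors, was at 34.8 CPM in RBM20 homo with correction and 63.5 in WT there. For RBM20 het over WT in macrophage-like nuclei, Hnrnpd passed at 0.75 on 80 UMIs in RBM20 het and 63 in WT, where 3.58% of genes were higher.

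In the 3 smaller lineages RBM20 homo over WT gave calls on few UMIs. None of 28 members tested passed 1.5-fold in endocardial-like nuclei, where 16.3% of all genes tested did. In lymphatic endothelial-like nuclei Hnrnpdl was lower at -0.67 [-1.07 to -0.26], the 1 call among 25 members, where 5.7% of genes were lower and 12.1% passed either way. In smooth muscle-like nuclei 3 of 19 members were lower, Srsf1, Srsf2 and Hnrnph3, where 7.92% of genes were. That lineage held 146 nuclei in RBM20 homo and 76 in WT. For RBM20 het over WT in endocardial-like nuclei, Srsf4 was higher, at 123 CPM on 125 UMIs in RBM20 het and 76.3 CPM on 70 UMIs in WT, where 5.28% of genes were. Hnrnpdl was lower there at -0.69 [-0.97 to -0.42], where 5.64% of genes were. These are not all the calls in the smaller lineages. RBM20 homo with correction over WT gave calls in each of them, and RBM20 het over WT also in lymphatic endothelial- and smooth muscle-like nuclei. RBM20 homo with correction over RBM20 homo gave calls in endocardial- and lymphatic endothelial-like nuclei. Those calls are not listed here.

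Lineages were then compared within each library, as a description, since they were defined by clustering the same nuclei. The ratio of cardiomyocyte-like over another lineage was centred on all genes, whose median lay between -0.74 and -0.28. Members that were past 1.5-fold in all 4 libraries were Hnrnpl, Srsf9 and Srsf10 higher against fibroblast-like nuclei, where 23.3% of genes were higher and none of the members was lower. Against endothelial-like nuclei Hnrnpl was higher, where 24.1% of genes were, and Hnrnpf and Hnrnpa0 lower, where 21.3% were. Against pericyte-like nuclei Hnrnph2 and Hnrnpr were lower (16.4% of genes), and against macrophage-like nuclei Hnrnpf (19.9%). With no centring the counts were 0 higher in each, with 11 lower against fibroblast-, 9 against endothelial-, 10 against pericyte- and 8 against macrophage-like nuclei, where 52.9%, 52.2%, 43.9% and 47.8% of genes passed either way, so both the counts and the split depended on this scaling. Without the RBM20 homo library the counts were 3 higher and 2 lower against fibroblast-, 2 and 3 against endothelial-, 2 and 4 against pericyte- and 2 and 2 against macrophage-like nuclei, where 48.1%, 49.4%, 43.3% and 47.0% of genes passed either way.

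Averaged over those 4 lineages and the 4 libraries, Hnrnpl stood highest in cardiomyocyte-like nuclei at 1.05, followed by Srsf9 at 1.03, Srsf10 at 0.64, Srsf1 at 0.42 and Srsf3 at 0.41. The lowest were Hnrnpf at -0.86, Hnrnph1 at -0.66, Hnrnpd at -0.61, Hnrnph2 at -0.54 and Hnrnpab at -0.45. Of 10 SR genes 7 and of 20 hnRNP genes 7 were above 0. The members that lead this order, Hnrnpl and Srsf9, were also the members lower past 1.5-fold in RBM20 homo over WT cardiomyocyte-like nuclei. Both results use the same RBM20 homo and WT cardiomyocyte sums, so they are not independent. How often this held among all genes was not counted. In RBM20 homo, Hnrnpl was at 148 CPM in cardiomyocyte-, 119 in fibroblast-, 129 in endothelial-, 157 in pericyte- and 152 in macrophage-like nuclei, so that the cardiomyocyte CPM, with no centring, was within the range of the others. On the centred scale it stayed above them in RBM20 homo, at 1.06 over fibroblast-, 0.80 over endothelial-, 0.37 over pericyte- and 0.56 over macrophage-like nuclei, against values between 0.84 and 1.47 in WT. In WT it was at 289 in cardiomyocyte-, 142 in fibroblast-, 175 in endothelial-, 196 in pericyte- and 187 in macrophage-like nuclei. Srsf9 in RBM20 homo was at 16.3 in cardiomyocyte-like nuclei and between 15.1 and 29.7 in those 4 lineages, while in WT it was at 45.0 in cardiomyocyte-like nuclei and between 17.4 and 36.0 in the others.

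Hnrnpf and Hnrnph1 showed the other end without any centring. Hnrnpf was between 30.8 and 33.6 CPM in cardiomyocyte-like nuclei of the 4 libraries, and between 71.1 and 74.6 in fibroblast-like nuclei. Hnrnph1 was between 98.3 and 120 in cardiomyocyte-like and between 236 and 271 in fibroblast-like nuclei. For both genes no library of one lineage overlapped the other. This does not set them apart, since most other members also had such a gap, lower in cardiomyocyte-like nuclei. Among hnRNP genes these were Hnrnpa0, Hnrnpa2b1, Hnrnpa3, Hnrnpab, Hnrnpc, Hnrnpd, Hnrnph2, Hnrnph3, Hnrnpll, Hnrnpr, Hnrnpul1 and Hnrnpul2. Among SR genes these were Srsf4, Srsf5, Srsf6 and Srsf11. Hnrnpl had a gap in the other direction, and the remaining members, Srsf1 and Hnrnpu among them, overlapped. The median ratio of all genes over fibroblast-like nuclei was itself between -0.74 and -0.44. After centring on it, Hnrnph1 ran between -0.85 in WT and -0.23 in RBM20 homo, and Hnrnpf between -0.77 in WT and -0.41 in RBM20 homo. The share of all genes with such a gap was not counted.

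**Figure D4:**
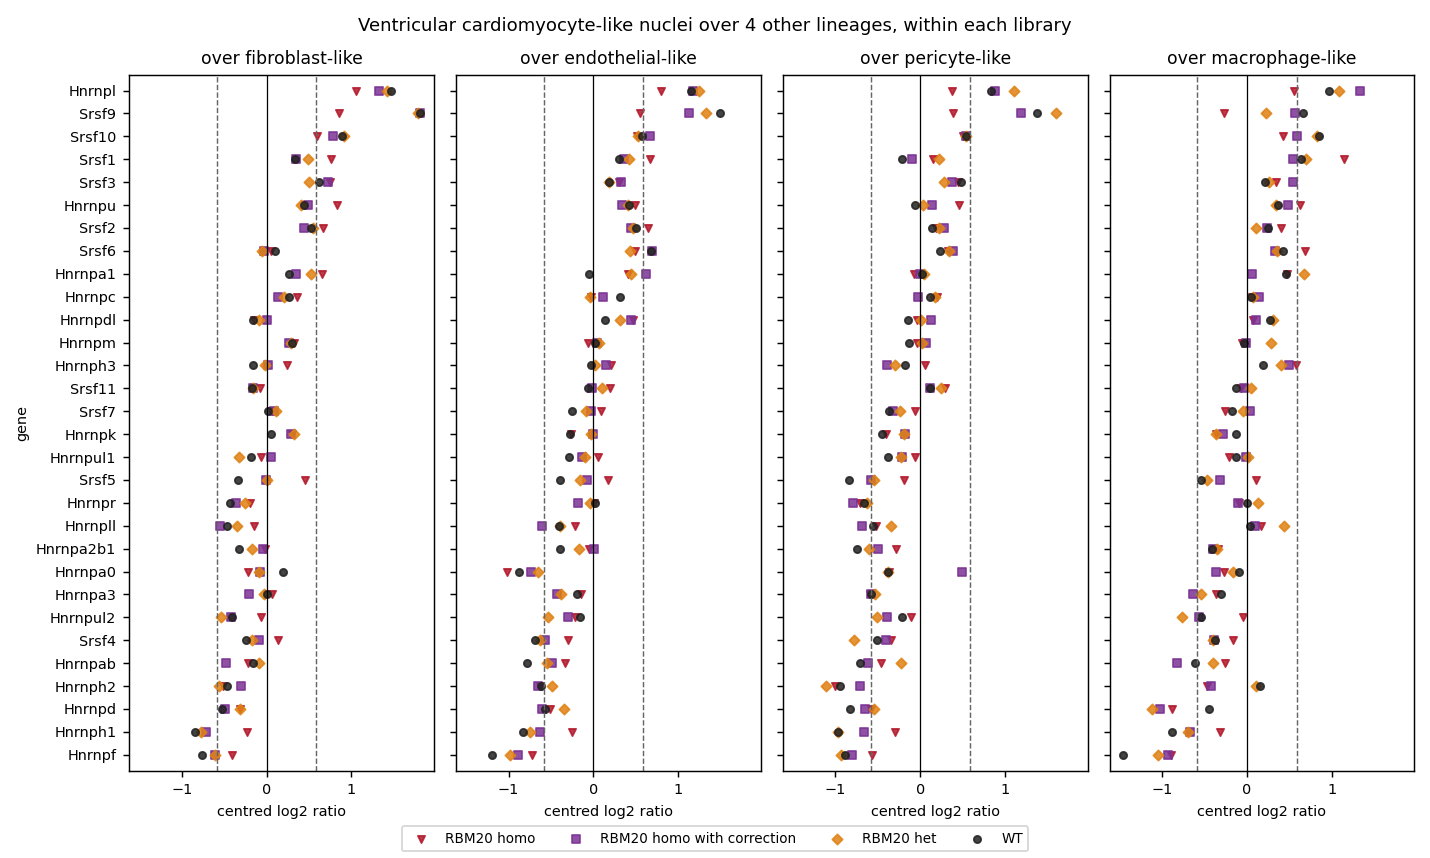
Centred log2 ratio of ventricular cardiomyocyte-like nuclei over 4 other lineages (panels) for the 30 genes (rows), 1 symbol per library. Hnrnpl and Srsf9 are at the top and Hnrnpf at the bottom, and the RBM20 homo symbols of Srsf9 (0.85 against fibroblast-like nuclei) lie left of those of the other libraries (1.79 to 1.81).

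Other splicing genes were read in the same cardiomyocyte-like sums, from 4 lists. Of the 14 genes of kinases and nuclear import, none passed 1.5-fold in RBM20 homo over WT, and their median was 0.09, where the median of all genes is 0 by construction. The furthest were Clk3 at -0.53 [-0.69 to -0.37], Ppp1cb, a phosphatase subunit, at 0.45 and Clk2 at 0.44, while Srpk1 was at -0.25 and Srpk2 at 0.02. Of 20 SR-related genes, with a median of 0.06, 1 passed, Luc7l3, a U1 snRNP-associated protein gene, at 0.61 [0.54 to 0.68], and the next were Scaf1 at 0.58 and Pnn at 0.40. Of 22 hnRNP-related genes 21 could be tested and 1 passed, Rbmx, the X-linked hnRNP G gene, at 0.70 [0.58 to 0.81]. Their median was 0.20, with Ptbp3 at -0.54 and Fubp1 at 0.48 next. Of 30 core spliceosome genes, with a median of 0.07, 3 passed, all higher: Prpf31, a gene of the U4/U6 particle, at 0.79 [0.45 to 1.13], Snrpd1, an Sm core gene, at 0.78 [0.46 to 1.11] and Sf3b3, of the branch point complex, at 0.61 [0.48 to 0.75]. These shares are read against the 29.8% of all genes given above.

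For RBM20 het over WT, Pcbp1, a poly(C)-binding protein gene, was the 1 gene of the 4 lists past the threshold, at -0.69 on 109 UMIs in RBM20 het and 189 in WT, where 11.5% of all genes passed. For RBM20 homo with correction over RBM20 homo, Cirbp, a cold-inducible RNA-binding protein gene, was higher at 0.77 [0.57 to 0.97] and Pcbp1 lower at -0.72, where 23% of all genes passed. For RBM20 homo with correction over WT, Snrpf at -0.94 and Pcbp4 at -0.65 were lower, where 12.9% of all genes passed.

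Gene structure, which the choice by name did not use, was read from the annotation. In the GENCODE annotation of GRCm38 all 30 were found, on 16 chromosomes, with a median span of 10.4 kb against 28.5 kb for the 11587 protein-coding genes tested in cardiomyocyte-like nuclei. A transcript annotated as a target of nonsense-mediated decay was listed for 19 of 30 members, 9 of 10 SR genes and 10 of 20 hnRNP genes, against 29.9% of those protein-coding genes. Srsf10 was the SR gene without one. A retained-intron transcript was listed for 22 members, against 60.7% of those genes. The counts used here are per gene and do not tell a productive transcript from one that is decayed, so a level of Srsf7 or Srsf9 is a sum over their annotated transcripts, 8 and 5 of them. Of the 30 members 10 overlap a gene on the opposite strand.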

How the data were processed

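Single-nucleus libraries of mouse heart were compared by lineage and genotype. The deposited files hold raw UMI counts per gene and barcode. Per the submitters' processing notes the tools were Seurat 4 and Cell Ranger 6.1.1 with the mm10 (GRCm38) build, while the matrix headers give version 4.0.0 of Cell Ranger. Whether intronic reads were counted is not given in the sources used here.

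Barcodes under 300 genes or over 5% mitochondrial UMIs were dropped, and the highest Scrublet scores were removed at 0.8% per 1000 barcodes. Clustering used scanpy 1.11.5 and leidenalg 0.10.2 on 2000 variable genes without the members, 30 principal components, 20 neighbours and resolution 0.8. A cluster was named when at least 3 markers were 3-fold above the median cluster, at 25% or more of the highest cluster and in 5% of nuclei. A cluster with 3 markers of another type, or with over 50% of its nuclei in such clusters at resolution 1.6, stayed unnamed. These naming limits were set after seeing the data, and 8.41% to 10.7% of nuclei stayed unnamed. Counts were summed per lineage and library, and ratios have exact conditional binomial 95% intervals. Genes needed 50 UMIs in the pair. Lineages needed 50 nuclei in each library. The ratio and its interval were tested on simulated data. edgeR 4.0.16 gave TMM factors as an alternative; no count model was fitted, since each genotype has 1 library.

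Named genes were those past 1.5-fold, the 8 largest ratios of RBM20 homo over WT with at least 200 UMIs, the 5 highest and 5 lowest across lineages and up to 3 of each other list. Members and lists were chosen with earlier results of these data known.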

Additional observations from a re-analysis of the deposited data

How the results depend on the processing

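No paired analysis was possible because each genotype has 1 library and the labels carry no replicate number. The 8 named members kept their sign for RBM20 homo over WT in cardiomyocyte-like nuclei in 80 of 80 alternative values, with Srsf9 between -1.49 and -1.25, Hnrnpl between -0.96 and -0.74 and Srsf7 between 0.57 and 0.81. Of the alternative counts of members past the threshold, 85 stayed within 1.5 times, 23 gave more members and 8 gave fewer. The median member of RBM20 homo over WT ran between -0.11, with no centring, and 0.17.

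With the threshold at 25% the counts, each beside the share of all genes past the same threshold, were 9 (46.4%) for RBM20 homo over WT, 3 (24.3%) for RBM20 het over WT, 7 (39.1%) for RBM20 homo with correction over RBM20 homo and 5 (26.8%) for RBM20 homo with correction over WT in cardiomyocyte-like nuclei, and for RBM20 homo over WT 5 (34.8%) in fibroblast-, 5 (27.1%) in endothelial-, 6 (23.3%) in pericyte- and 5 (25.4%) in macrophage-like nuclei. At 2-fold they were 1 (14.5%) for RBM20 homo over WT and 0 (3.98%) for RBM20 homo with correction over WT in cardiomyocyte-like nuclei, and 0 in fibroblast- (9.51%), endothelial- (5.92%) and macrophage-like (6.99%) nuclei. With no centring, RBM20 homo with correction over RBM20 homo gave 2 (24.1%), and the lineage comparisons 11 (52.9%) for fibroblast-, 9 (52.2%) for endothelial-, 10 (43.9%) for pericyte- and 8 (47.8%) for macrophage-like nuclei. Thinned to 1000 UMIs per nucleus, the counts were 2 (19.7%) for RBM20 homo with correction over RBM20 homo, 2 (11.4%) for it over WT and 3 (16.2%) for RBM20 homo over WT in endothelial-like nuclei. With doublets kept, RBM20 homo with correction over RBM20 homo gave 1 (22.0%), and macrophage-like nuclei 1 (18.6%) for RBM20 homo over WT. Macrophage-like nuclei also gave 1 (13.6%) with at least 200 UMIs and 1 (16.3%) with nuclei assigned one by one from markers. Leaving out 1 library gave the highest lineage counts without RBM20 homo. They were 5 (48.1%) for fibroblast-, 5 (49.4%) for endothelial-, 6 (43.3%) for pericyte- and 4 (47.0%) for macrophage-like nuclei. The lowest counts were 3, 3, 2 and 1 in that order. Macrophage-like nuclei gave 2 without RBM20 homo with correction and 2 without WT. The share of all genes is not given for the runs that kept RBM20 homo, so their counts cannot be read against it. The causes were not tested. Lineages with fewer nuclei have wide counting intervals, and with 1 library per genotype no value separates genotype from pool or preparation.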

Other observations

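Genes next to Srsf10 on chromosome 4 had larger ratios than it in RBM20 homo over WT cardiomyocyte-like nuclei. Myom3, a sarcomere M-band gene, was at 17.3 CPM in RBM20 homo and 9.78 in WT, a ratio of 1.02 [0.74 to 1.29], and Pnrc2, a decapping cofactor gene on the other side, was at 0.64 [0.37 to 0.91].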
